A study of Mus musculus with 61 samples.

Results

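The comparison was of mouse pancreatic ductal organoid cells that carried the reporters of Pdx1 and MafA (6 samples) with cells that carried the MafA reporter alone (5 samples). Both lacked the reporter of Ngn3, and together they were 11 of the 32 samples of the study. The samples were chosen by their labels and by a minimum of 1000000 gene counts per library, which all 20 libraries of these groups passed. Organoids from ducts of C57BL/6 mice were infected with separate lentiviral vectors for GFP-Ngn3, LSSOrange-Pdx1 and tdTomato-MafA. The factors were under doxycycline control through a transactivator driven by the PGK promoter. Each library was made from a pool of 50 cells sorted after 8 days of doxycycline. In the WT cultures the Ngn3 vector encoded wild-type Ngn3 and in the 6SA cultures its phospho-mutant form, so both sides of the comparison came from cultures that had also been infected with an Ngn3 vector. Pdx1 with MafA had 3 biological replicates in either culture, and MafA had 3 in the 6SA and 2 in the WT cultures. Replicates 1 and 2 were organoids at passage 2 and replicate 3 at passage 5. Sorting by a reporter selects cells with a vector but does not fix the amount of factor in a cell, and no uninfected cells were analysed here. In pools of cells fewer cells of a type and less RNA per cell cannot be told apart. The question was what accompanied Pdx1 when it was added to MafA and Ngn3 was left out.

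Pdx1 is a homeodomain transcription factor that marks the pancreatic and duodenal endoderm of the embryo, where it is needed for the pancreas to form. It is later kept mainly in β-cells, where it binds sites with a TAAT core in the insulin and other β-cell genes. MafA is a basic leucine zipper factor of mature β-cells that acts on the insulin promoter together with Pdx1 and Neurod1. Ngn3, encoded by Neurog3, is the basic helix-loop-helix factor that starts endocrine differentiation, so the cells compared here were sorted without the factor that commits ductal progenitors to the endocrine fate.

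Gene counts ranged from 3339874 to 18286434 per sample, and 3 counts corresponded to 0.173 to 0.925 counts per 1000000 (CPM, scaled by the trimmed mean of M-values), a limit that covers counting error only. Two-sided exact permutation tests within cultures, with 0.005 as the smallest possible p, gave 0.62 for the number of genes detected and 0.535 for total gene counts. The same exact permutation tests gave p = 0.63 for the spike-in share (mean difference -0.0445 percentage points) and p = 0.44 for the mitochondrial share (-1.67 percentage points). More genes were detected with Pdx1 and MafA in 5 of 5 same-numbered pairs. The replicate 1 samples of all 4 groups stood apart from the rest. Epcam, a surface marker of epithelium, was at 133 to 246 CPM in these 4 samples and at 1290 to 2359 CPM in the other 7. MafA replicate 3 of the 6SA cultures lay at the other end of the first principal component, which held 51.6% of the variance. Duct markers were abundant, with Krt19, the keratin of ducts, at 567 to 1524 CPM. The insulin genes Ins1 and Ins2, the pan-leukocyte gene Ptprc, the pericyte gene Pdgfrb, the endothelial gene Cdh5, the gastric gene Gkn1 and the enterocyte gene Fabp1 had 0 counts in all 11 samples. The glucagon gene Gcg and the acinar gene Cpa1 had at most 1 count in a sample. Neurog3 was at most 0.461 CPM with MafA and 0.697 CPM with Pdx1 and MafA.

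Pdx1 itself was higher with its reporter in every pair. On a log2(CPM + 1) scale the mean difference within cultures was 0.83 (two-sided exact permutation test over the 11 samples, p = 0.09). The mean of the 5 same-numbered pairs was 0.96, where an exact test flipping the signs of the pairs gave 0.0625, the smallest p that 5 pairs allow. The fitted log2 fold change was 0.79 (standard error 0.54). Blocking on the replicate number gave 1.17 (standard error 0.34, edgeR adjusted p = 0.814). Levels ran from 4.22 to 19.3 CPM with MafA and from 14.0 to 36.4 CPM with Pdx1 and MafA, so the ranges overlapped, and cells sorted for Pdx1 without MafA lay at 11.2 to 37.7 CPM (4 samples). Mafa did not separate the groups (log2 fold change 0.26, standard error 1.08) and ran from 0.107 to 3.16 CPM with MafA and from 0 to 4.21 CPM with both. Mafa was near the counting limit in cells sorted by its reporter, with 1 to 12 counts in a MafA sample and more than 3 counts in 3 of 9 MafA pools and 3 of 11 pools with Pdx1 and MafA. Whether vector transcripts were counted on these genes is not given in the sources used here.

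**Figure D1:**
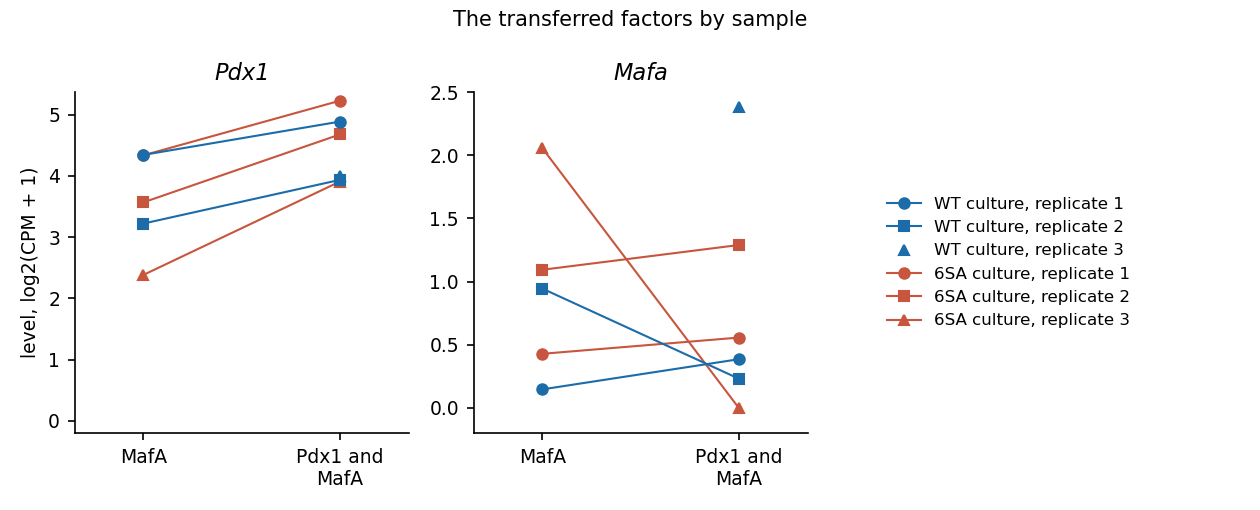
Levels of Pdx1 and Mafa as log2(CPM + 1) in the 5 MafA samples and the 6 samples with Pdx1 and MafA, with lines joining same-numbered samples of a culture (blue, WT; red, 6SA). All 5 lines rise for Pdx1, which reaches 36.4 CPM, whereas the lines for Mafa cross between 0 and 4.21 CPM.

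Across the transcriptome few or no genes passed the threshold, depending on the fit. Of 24004 genes tested over both cultures with edgeR, 0 (0%) passed an adjusted p of 0.05 in the fit without a block, and 689 had an unadjusted p under 0.05. When the replicate number was a block, 2 genes passed (0.00833% of those tested), and both were higher with Pdx1 and MafA: Bcl2l14 and Map2. The WT cultures alone gave 0 genes without the block and 1 with it (0.00417%), and the 6SA cultures alone gave 0 in both fits. The response differed between cultures for 0 genes. Under an unadjusted p of 0.05 these fits without the block had 447, 499 and 501 genes. DESeq2 called 27 genes over both cultures (21 higher, 6 lower), 18 in the WT cultures, 9 in the 6SA cultures and 5 for the difference between them. In all 5 pairs 581 genes (2.42%) were higher and 381 (1.59%) lower. The 6 samples with Pdx1 and MafA lay above all 5 MafA samples for 19 genes (0.0792%) and below them for 14 (0.0583%).

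Bcl2l14, a member of the Bcl-2 family, was close to absent with MafA and present in every sample with Pdx1 added. This gene (ENSMUSG00000030200) lies on chromosome 6 of GRCm38, 134396318 to 134438736, on the plus strand. MafA samples had 0.173, 0 and 0 CPM in the 6SA cultures (replicates 1, 2 and 3) and 0.107 and 0 CPM in the WT cultures (replicates 1 and 2), from 4 counts in all. With Pdx1 and MafA it was at 24.3, 1.30 and 5.14 CPM in the 6SA cultures and at 14.6, 4.53 and 0.963 CPM in the WT cultures, from 683 counts. Both replicate 1 samples were the highest of their culture and the groups did not overlap. The ratio of summed counts per effective library size was 117 (exact 95% counting interval 45.7 to 432), and the log2 fold change with the block was 7.18 (standard error 1.11, edgeR adjusted p = 0.0187, higher in 5 of 5 pairs). Without the block it was 6.48 (standard error 1.48, edgeR adjusted p = 1.00). Leaving out single samples with the block, Bcl2l14 passed in 6 of 11 fits. The edgeR adjusted p rose to 0.105, 0.0729, 0.555, 0.564 and 0.0580 without MafA replicates 1 and 2 of the 6SA cultures, MafA replicates 1 and 2 of the WT cultures and Pdx1 with MafA replicate 1 of the 6SA cultures, respectively.

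Map2, which encodes a microtubule-associated protein of neuronal dendrites, was higher in every pair by a nearly constant factor. The gene (ENSMUSG00000015222) lies on chromosome 1, 66175273 to 66442583, on the plus strand. MafA samples had 11.4, 2.75 and 2.37 CPM in replicates 1, 2 and 3 of the 6SA cultures and 9.11 and 3.39 CPM in the WT cultures. With Pdx1 added it was at 74.5, 18.6 and 14.4 CPM in the 6SA cultures and at 56.8, 19.5 and 10.8 CPM in the WT cultures. The pairs differed by 2.19 to 2.61 on the log2(CPM + 1) scale, while the ranges of the groups touched, since replicate 1 of the 6SA cultures with MafA lay above the lowest sample with Pdx1 and MafA. The log2 fold change was 2.41 (standard error 0.73, edgeR adjusted p = 1.00). Under the block it was 2.72 (standard error 0.45, edgeR adjusted p = 0.0199). Map2 passed in 4 of the 11 fits with the block and a sample left out, and its highest adjusted p there was 0.824, without MafA replicate 2 of the WT cultures.

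The 250 bases before an annotated start of Bcl2l14, of Map2 and of Gkn3, described next, are shown because Pdx1 binds TAAT cores. They are from RefSeq on GRCm38.p6, at chr6:134396079-134396328 on the plus strand for Bcl2l14, chr1:66175079-66175328 on the plus strand for Map2 and chr6:87388936-87389185 on the minus strand for Gkn3. They are written 5′ to 3′ on the strand of the gene, with TAAT on either strand in capitals.
Bcl2l14: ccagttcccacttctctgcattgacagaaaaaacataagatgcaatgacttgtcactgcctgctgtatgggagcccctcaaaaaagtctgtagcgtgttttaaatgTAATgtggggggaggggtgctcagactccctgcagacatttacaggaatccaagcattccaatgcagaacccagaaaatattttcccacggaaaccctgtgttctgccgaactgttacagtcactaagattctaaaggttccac
Map2: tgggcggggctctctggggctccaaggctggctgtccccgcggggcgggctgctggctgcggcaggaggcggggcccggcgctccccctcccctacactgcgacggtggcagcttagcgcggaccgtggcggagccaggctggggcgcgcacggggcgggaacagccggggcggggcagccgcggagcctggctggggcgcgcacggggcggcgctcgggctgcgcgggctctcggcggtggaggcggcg
Gkn3: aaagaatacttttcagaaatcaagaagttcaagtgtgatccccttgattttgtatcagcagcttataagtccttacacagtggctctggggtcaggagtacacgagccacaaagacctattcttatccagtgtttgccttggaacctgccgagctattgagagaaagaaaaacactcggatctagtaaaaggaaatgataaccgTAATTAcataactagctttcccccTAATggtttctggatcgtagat
The window of Bcl2l14 shown, the first of 2 in the table, held 1 TAAT and the other held 2. That of Map2, of which 81.2% was G or C, held 0, and that of Gkn3 held 3, among them 1 TAATTA and 1 CTAATG, each of which contains TAAT. The core of sites bound by Maf factors, TGCTGA, was found 1 time in the window of Gkn3 and 0 times in the other two. Among 32851 windows of this length, searched on either strand, 54.9% held TAAT. The longer TAATTA was found in 4.84% of the windows. For CTAATG the share was 6.36%, and the Maf core TGCTGA was in 16.1% of them. Absence of a motif says only that these letters are not in this window.

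The sulfonylurea receptor gene Abcc8 and the potassium channel gene Kcnj11, which together encode the channel that couples glucose to insulin release in β-cells, were the 2 of 22 tested β-cell genes that were higher in all pairs. Abcc8 (chromosome 7, 46104523 to 46180033, minus strand) was at 1.44, 0.648 and 0 CPM with MafA in replicates 1, 2 and 3 of the 6SA cultures and at 0.214 and 0 CPM in the WT cultures. With Pdx1 and MafA it was at 36.5, 1.16 and 3.86 CPM in the 6SA cultures and at 25.7, 4.18 and 0.722 CPM in the WT cultures. The replicate 1 samples were the highest, and 1 MafA sample lay above the lowest sample with Pdx1. With the block the log2 fold change of Abcc8 was 5.30 (standard error 0.98) and missed the threshold (edgeR adjusted p = 0.0765). It passed with the block in fits of the 4 groups alone, without a gene filter and with the newer quasi-likelihood setting of edgeR. Without the block DESeq2 gave Abcc8 an adjusted p of 0.0339. Kcnj11 (chromosome 7, 46093953 to 46100764), the neighbouring gene, had 0 counts in all MafA samples and 61 in those with Pdx1 and MafA. This was a mean of 0.846 CPM that was at least 1.57-fold higher than the mean level of 3 counts in each MafA sample. Its samples were at 1.94, 0.289 and 1.00 CPM in the 6SA cultures and at 1.15, 0.697 and 0 CPM in the WT cultures, and the adjusted p was 0.664 in edgeR with the block and 3.29e-24 in DESeq2. Ins1, Ins2 and Ucn3, genes of mature β-cells, had 0 counts on both sides. Of the other members, Iapp, which encodes the peptide amylin, was at 0 to 1.04 CPM with MafA and 0 to 8.67 CPM with Pdx1 and MafA and higher in 2 of 5 pairs. Nkx6-1, a β-cell and progenitor factor, was at 0 to 3.16 CPM against 0 to 0.843 CPM and higher in 1 of 5. The median log2 fold change over the 22 genes was 0.35, beside 0.02 over all genes tested. Above 0 were 12 of 22 (54.5%), beside 51.7% of all genes. Within pairs the list median was 0.000851 in replicate 1 of the 6SA cultures and 0 in the other pairs. The share higher in all pairs was 9.09%, beside 2.42% of all genes. Abcc8 was far higher in cells with Ngn3 and MafA (median 96.5 CPM), and the part of Ngn3-expressing cells in its level here was not tested. Neurog3 itself was at most 0.697 CPM in the cells compared and had a median of 58.1 CPM in cells with Ngn3 and MafA.

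Several further genes with the lowest p under the block were low or absent with MafA, and none of them passed the threshold in either edgeR fit over both cultures. They, Bcl2l14, Kcnj11 and Gp2 were chosen after their values were seen. Spock3, which encodes a secreted proteoglycan of the testican family, was at 0.807, 0 and 0 CPM with MafA in the 6SA cultures and at 0.536 and 0 CPM in the WT cultures. With Pdx1 and MafA it was at 32.4, 6.65 and 2.29 CPM in the 6SA cultures and at 16.2, 6.62 and 8.19 CPM in the WT cultures. The groups did not overlap (log2 fold change with the block 5.52, standard error 1.08, edgeR adjusted p = 0.0861). Gkn3, a gastrokine gene of the stomach (ENSMUSG00000030048, chromosome 6, 87383256 to 87388935, minus strand), was at 1.27, 0 and 0 CPM with MafA in the 6SA cultures and at 1.71 and 0.308 CPM in the WT cultures. With Pdx1 and MafA it was at 30.7, 15.6 and 0 CPM in the 6SA cultures and at 83.0, 163 and 0 CPM in the WT cultures. It was high in all 4 samples of passage 2 and at 0 in both of passage 5 (log2 fold change with the block 5.83, standard error 1.13, edgeR adjusted p = 0.0861). Gp2, which encodes a membrane glycoprotein of acinar zymogen granules, was also at 0 in both samples of passage 5. It was at 56.9, 6.36 and 0 CPM in the 6SA and 27.5, 41.5 and 0 CPM in the WT cultures with Pdx1 and MafA, and at most 0.865 CPM with MafA. Dpysl4, of a family of cytoskeletal proteins of growing axons, was at 9.60, 0.578 and 0 CPM and at 9.34, 1.74 and 0 CPM in the same order, highest in replicate 1 of either culture. It was at most 0.214 CPM with MafA, where passage 5 was represented by 1 sample.

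Rundc3b had 0 counts with MafA and 87 with Pdx1 and MafA, where all 6 samples had it (0.589 to 3.90 CPM), at least 3.50-fold higher than the mean level of 3 counts in each MafA sample. Gpc3, a glypican that binds growth factors at the cell surface, had a median of 10.2 CPM with MafA and 65.8 CPM with Pdx1 and MafA (log2 fold change with the block 3.16, standard error 0.66, edgeR adjusted p = 0.166). It was higher in 5 of 5 pairs, although the ranges overlapped. Without MafA replicate 1 of the WT cultures the log2 fold change with the block was 6.16 for Gpc3, 7.45 for Spock3 and 6.31 for Abcc8. Without MafA replicate 1 of the 6SA cultures it was 7.95 for Gkn3 and 7.42 for Spock3, and without replicate 2 it was 6.30 for Gfra4. Past the threshold among these fits were Abcc8 without Pdx1 with MafA replicate 2 of the 6SA cultures (edgeR adjusted p = 0.0135) and Gkn3 without replicate 3 of the WT cultures (edgeR adjusted p = 0.0314). Gfra4, a co-receptor for ligands of the GDNF family, had 3 counts with MafA and 57 with Pdx1 and MafA, a ratio of 13.1 (exact 95% counting interval 4.25 to 65.2).

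**Figure D2:**
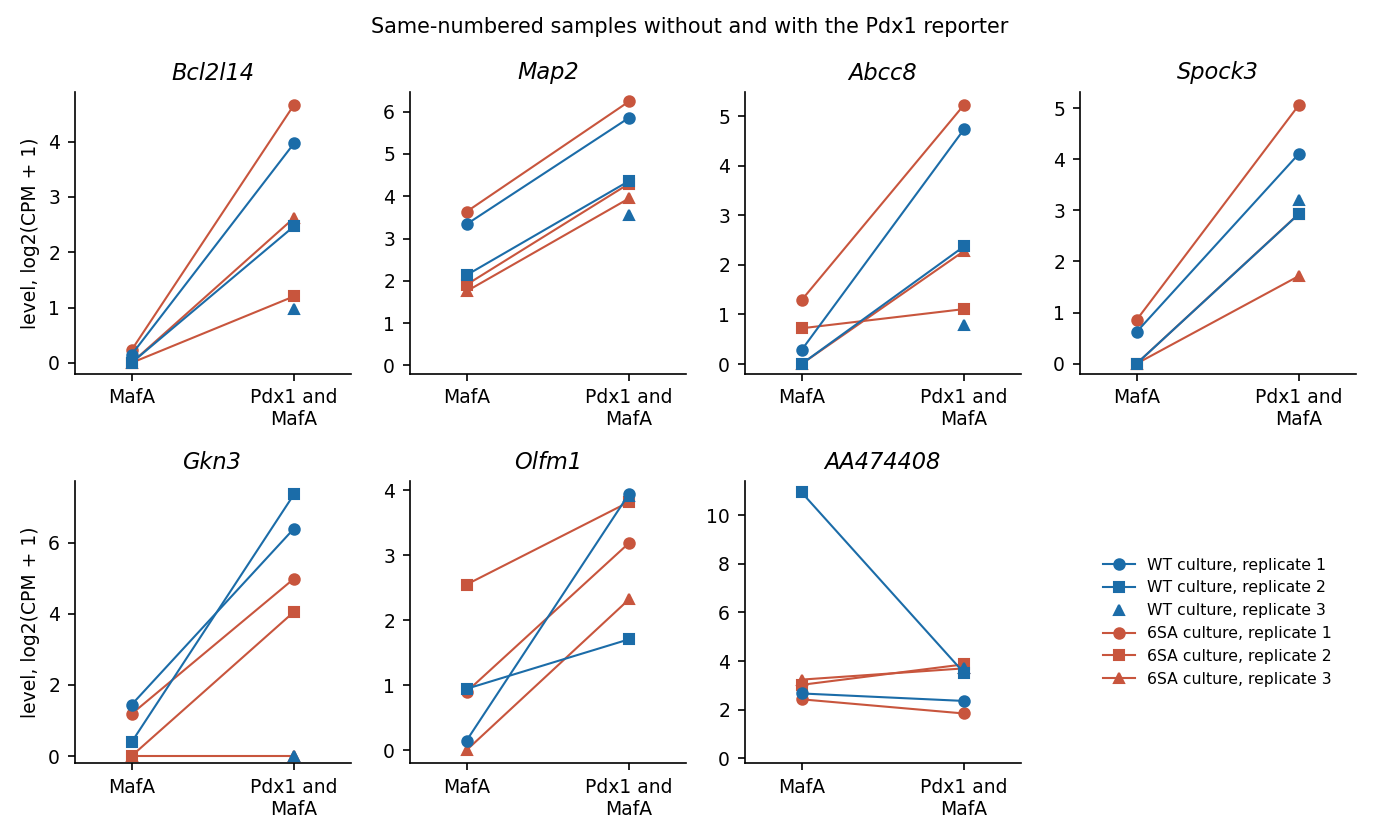
Levels as log2(CPM + 1) of 7 genes in MafA samples and in samples with Pdx1 and MafA, 1 point a sample, with lines joining same-numbered samples (blue, WT; red, 6SA; circles, squares and triangles, replicates 1, 2 and 3). The lines of Map2 run parallel over 2.19 to 2.61 log2 units, Bcl2l14 and Spock3 start near 0 in all 5 pairs, Gkn3 stays at 0 in the passage 5 samples, and AA474408 falls from 1972 CPM in 1 pair only.

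Other genes were higher in all 5 pairs with a mean of at least 5 CPM and the lowest unadjusted p, and none of them passed the threshold in either edgeR fit over both cultures. In at least 1 other setting with the block Olfm1, Aldoc, Dclk1, Cd74 and Angptl7 did pass. Olfm1, a secreted protein of neurons, was at 0.864, 4.86 and 0 CPM with MafA in the 6SA cultures and at 0.107 and 0.925 CPM in the WT cultures. With Pdx1 and MafA its 6 samples lay at 2.27 to 14.4 CPM, with 2 of them below the highest MafA sample (log2 fold change 3.41, standard error 0.93, unadjusted p = 0.00103). Aldoc, the aldolase isoform typical of brain, was at 28.7 to 62.8 CPM (median 45.9) with MafA and at 80.4 to 139 CPM (median 105) with Pdx1 and MafA. The groups did not overlap for Aldoc, with a log2 fold change of 1.20 (standard error 0.43). Dclk1, a doublecortin-like kinase known as a marker of tuft cells, was at 34.3 to 127 CPM with MafA and at 92.2 to 434 CPM with Pdx1 and MafA, with the highest values in replicate 1 of either culture (log2 fold change 1.43, standard error 0.52). Cd74, the invariant chain of major histocompatibility complex class II, was at 2.11 to 5.51 CPM against 0.482 to 64.8 CPM (log2 fold change 2.77, standard error 1.03) and was lowest in the passage 5 WT sample with Pdx1 and MafA, which has no partner. Angptl7 rested on a single sample, at 109 CPM in replicate 3 of the 6SA cultures with Pdx1 and MafA and at most 4.30 CPM in the other 10 samples. The annotated transcript 4930503L19Rik had a log2 fold change of 1.91 (standard error 0.56).

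Of the genes lower in all pairs, the 10 chosen by the same rule had log2 fold changes of -0.68 to -2.15. None of these 10 passed the threshold in either edgeR fit over both cultures. Kbtbd7, an adaptor of cullin-3 ubiquitin ligases, had the largest fold change of the 10 lower genes with a mean of at least 5 CPM that are named here. It was at 10.3, 22.7 and 1.58 CPM with MafA in the 6SA cultures and at 10.9 and 31.8 CPM in the WT cultures. Its 6 samples with Pdx1 added lay at 1.00 to 5.06 CPM (log2 fold change -2.15, standard error 0.54, edgeR adjusted p = 1.00). DESeq2 gave Kbtbd7 an adjusted p of 0.00985. MafA replicate 3 of the 6SA cultures lay within the range of the samples with Pdx1, and the other 4 lay above it. The remaining genes of this direction were Slc7a2, a transporter of cationic amino acids (-1.14, standard error 0.43), Map3k14, the NF-κB inducing kinase (-1.03, standard error 0.38), Heatr5a (-1.09, standard error 0.42) and Dop1b (-0.96, standard error 0.38), each given as a log2 fold change. On the same scale they were followed by Cep170, a centrosomal protein (-0.77, standard error 0.33), Itgb5, an integrin subunit (-0.76, standard error 0.30), Inpp5f, a phosphoinositide phosphatase (-0.68, standard error 0.28), and the unnamed or predicted loci ENSMUSG00000089788 (-1.01, standard error 0.32) and Gm37465 (-1.25, standard error 0.53). Heatr5a (19.8 to 50.3 CPM against 3.85 to 18.6 CPM) and Gm37465 (6.00 to 9.75 CPM against 1.74 to 5.36 CPM) did not overlap between the groups.

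The single gene past the threshold in 1 culture was AA474408 (chromosome 7, 110057987 to 110061325), a locus with no assigned product, in the WT cultures with the block (log2 fold change -6.53, standard error 1.00, edgeR adjusted p = 0.0106). The call rested on MafA replicate 2 of the WT cultures, at 1972 CPM, while the other 10 samples were at 2.59 to 13.6 CPM. Without that sample the fold over both cultures changed from -3.15 to 0.59. The difference between cultures for AA474408 had the lowest p of all genes (7.31 on the log2 scale, standard error 1.48, unadjusted p = 3.55e-05) and an edgeR adjusted p of 0.852. The next, Rsad2, an interferon-induced antiviral gene, was at 8.33 CPM in that same MafA sample and at 79.0 CPM in replicate 2 of the 6SA cultures with Pdx1 and MafA, and at most 0.264 CPM in the other 9 samples.

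Levels over the 6 reporter combinations put some of these genes into 2 patterns, given here as a description with no test. Bcl2l14 was at 35.4, 4.61, 18.7 and 10.6 CPM in the 4 samples with Pdx1 alone (6SA replicates 1 and 2, then WT replicates 1 and 2). It was at most 0.484 CPM in the 6 with Ngn3 and MafA, and at most 0.746 CPM in the 5 with Ngn3, Pdx1 and MafA. Gkn3 was at 15.4 to 314 CPM with Pdx1 alone, at most 4.89 CPM with Ngn3 and MafA and at most 0.0810 CPM with the 3 factors. With Pdx1 and MafA, Bcl2l14 was at 0.963 to 24.3 CPM and Gkn3 at 0 to 163 CPM, with both samples at 0 from passage 5, whereas the 4 samples with Pdx1 alone were all of passage 2. Cells with Ngn3 and Pdx1 lay between, at 0 to 9.43 CPM for Bcl2l14 and 0.637 to 30.4 CPM for Gkn3. Dclk1 had medians of 76.4 CPM with MafA, 372 CPM with Pdx1 and 126 CPM with both. Beside Ngn3 its medians were 17.6 CPM (Ngn3 with MafA) and 13.2 CPM (the 3 factors), but 102 CPM (Ngn3 with Pdx1). Gpc3 had medians of 10.2, 102 and 65.8 CPM and then 0.104, 0.955 and 4.69 CPM in the same order. Map2 and Abcc8 formed the other pattern and were highest with Ngn3. The median of Map2 was 3.39 CPM with MafA, 19.1 CPM with Pdx1 added, 89.2 CPM for Ngn3 with MafA and 153 CPM with the 3 factors. Those of Abcc8 were 0.214, 4.02, 96.5 and 366 CPM in this order.

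**Figure D3:**
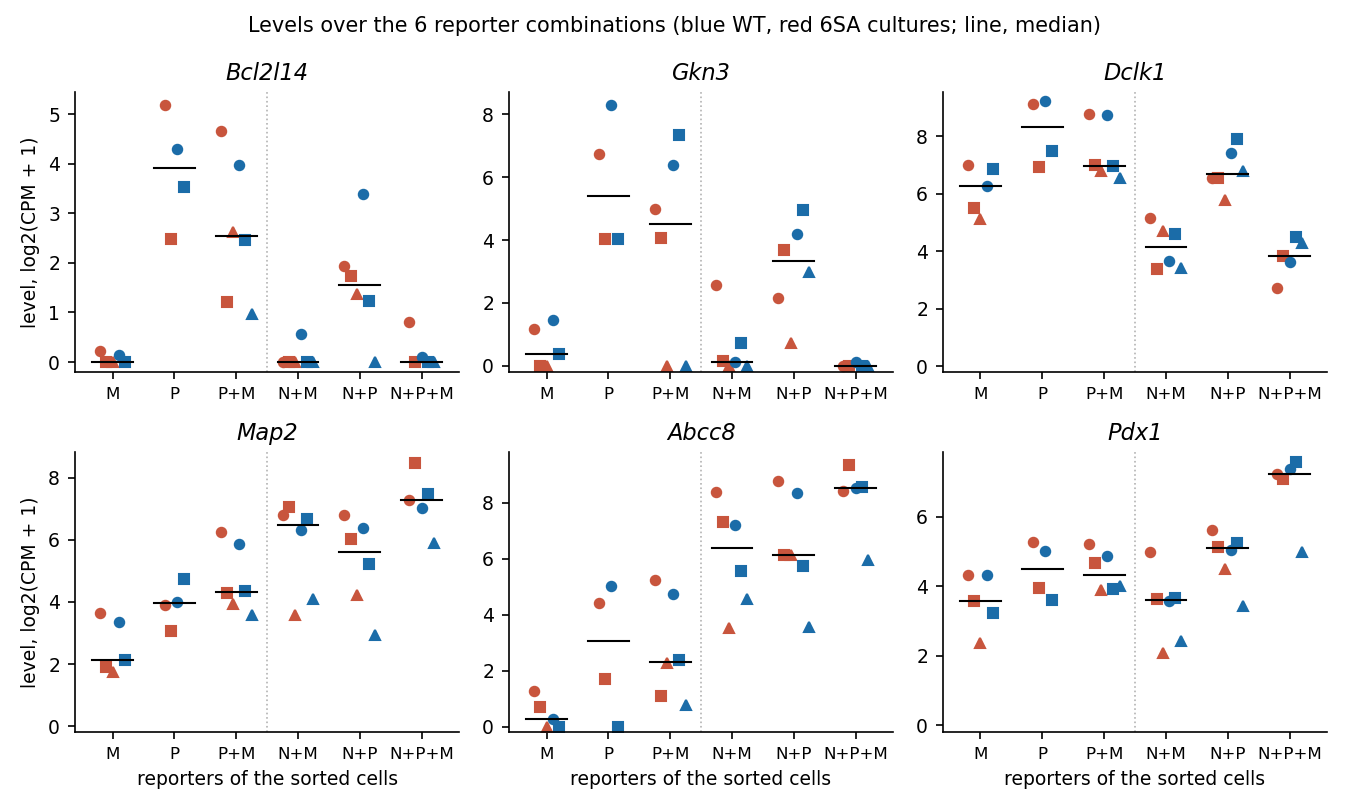
Levels as log2(CPM + 1) of 6 genes in cells sorted for MafA (M), Pdx1 (P), Pdx1 and MafA (P+M), Ngn3 and MafA (N+M), Ngn3 and Pdx1 (N+P) and all 3 (N+P+M), 1 point a sample (blue, WT; red, 6SA; shapes, replicates) with the median as a line. Bcl2l14 and Gkn3 are high in P and in P+M, apart from 2 P+M samples of Gkn3 at 0, and low in M, N+M and N+P+M, whereas Map2 and Abcc8 climb to medians of 153 and 366 CPM in N+P+M.

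The same addition of Pdx1 to MafA was also measured beside Ngn3, in other samples (5 with Ngn3, Pdx1 and MafA against 6 with Ngn3 and MafA), where it called far more genes. There 654 genes (2.72%) passed without the block, 280 higher and 374 lower, and 2038 (8.49%) with it, 1061 higher and 977 lower. Without the block the count was 321 with first technical repeats and 1948 in DESeq2. The difference of the Pdx1 effect without and beside Ngn3 passed for 12 genes (0.05%) and, with the block, for 62 (0.258%). Pdx1 was among the 62, with a log2 fold change with the block of 1.17 without Ngn3 and 3.41 beside it (difference -2.24, edgeR adjusted p = 0.0270), although not among the 12 (edgeR adjusted p = 0.190). With the block and 1 sample left out, the Pdx1 difference passed in 5 of 11 fits (highest edgeR adjusted p 0.0990), being lost without either MafA replicate of the WT cultures and without replicates 1 and 2 of Pdx1 with MafA of both cultures. Pdx1 ran to 36.4 CPM with Pdx1 and MafA and to 191 CPM with the 3 factors, so that the contrasts differed in how far Pdx1 itself was raised, and the part of this in the other differences was not tested. Gkn3 had log2 fold changes of 5.83 without and -4.99 beside Ngn3, neither past the threshold by itself, and their difference with the block passed (10.82, edgeR adjusted p = 0.0232). Dpysl4 had 5.08 and -2.97 (difference 8.05, edgeR adjusted p = 0.00688). Neither difference passed without the block (edgeR adjusted p = 0.162 and 0.230). With it, that of Gkn3 was lost without either MafA replicate of the WT cultures and that of Dpysl4 without replicate 1. Bcl2l14 was at 7.18 without and 1.27 beside Ngn3, a difference that did not pass (edgeR adjusted p = 1.00 with the block), at levels near the counting limit beside Ngn3.

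The 12 genes changed with Pdx1 beside Ngn3, 9 lower and 3 higher. None of them passed the threshold without Ngn3, where 0 of 24004 genes passed without the block and 2 with it. That outcome was therefore nearly fixed in advance, and the genes were selected because the effects differed. This comparison and its genes were added after the data were seen. Dmbt1, a mucosal scavenger receptor, was at 105 to 1352 CPM with MafA and at 159 to 894 CPM with Pdx1 and MafA (log2 fold change -0.24, standard error 0.65). Beside Ngn3 it went from a median of 65.9 CPM to one of 1.05 CPM (-5.86, standard error 0.89). Lbp, the lipopolysaccharide-binding protein of the acute phase, had a log2 fold change of -0.33 (standard error 0.44) without Ngn3 and of -3.75 (standard error 0.52) beside it, and Trf, transferrin, of 0.08 (standard error 0.48) and -3.91 (standard error 0.57). As log2 fold changes without and beside Ngn3, the others lower were the synaptotagmin gene Syt8 (0.11 and -6.47), Trim16 (0.04 and -3.67), Cbs, the cystathionine synthase (0.99 and -3.25), Fam110c (0.34 and -2.86), Ttc23 (0.31 and -2.50) and Casp8, the initiator caspase of death receptors (0.15 and -2.16). In the opposite direction, Xpnpep2, a membrane-bound aminopeptidase, was at most 0.634 CPM in the 11 samples with MafA or with Pdx1 and MafA and at 16.6 to 86.3 CPM with the 3 factors (log2 fold change beside Ngn3 8.10, standard error 1.18). The peptidyl-prolyl isomerase gene Fkbp9 had -0.09 without and 2.34 beside Ngn3, and Trp53i13 had -0.57 and 2.77. The edgeR adjusted p of the 12 differences lay between 0.0364 and 0.0483 without the block. Leaving out 1 of the 11 samples gave between 0 and 5 such genes without the block. It gave 0 for MafA replicate 2 of the 6SA cultures, either MafA replicate of the WT cultures, and Pdx1 with MafA replicate 2 of the 6SA and replicates 2 and 3 of the WT cultures. With the block the count was between 8, without MafA replicate 2 of the WT cultures, and 105. Trp53i13 passed in 11 of 11 of these fits, Cbs, Fkbp9 and Xpnpep2 in 9, Ttc23 in 8 and the other 7 genes in 10, being lost without MafA replicate 2 of the WT cultures. Xpnpep2 was lost without MafA replicate 1 of either culture, with an edgeR adjusted p of up to 1.

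**Figure D4:**
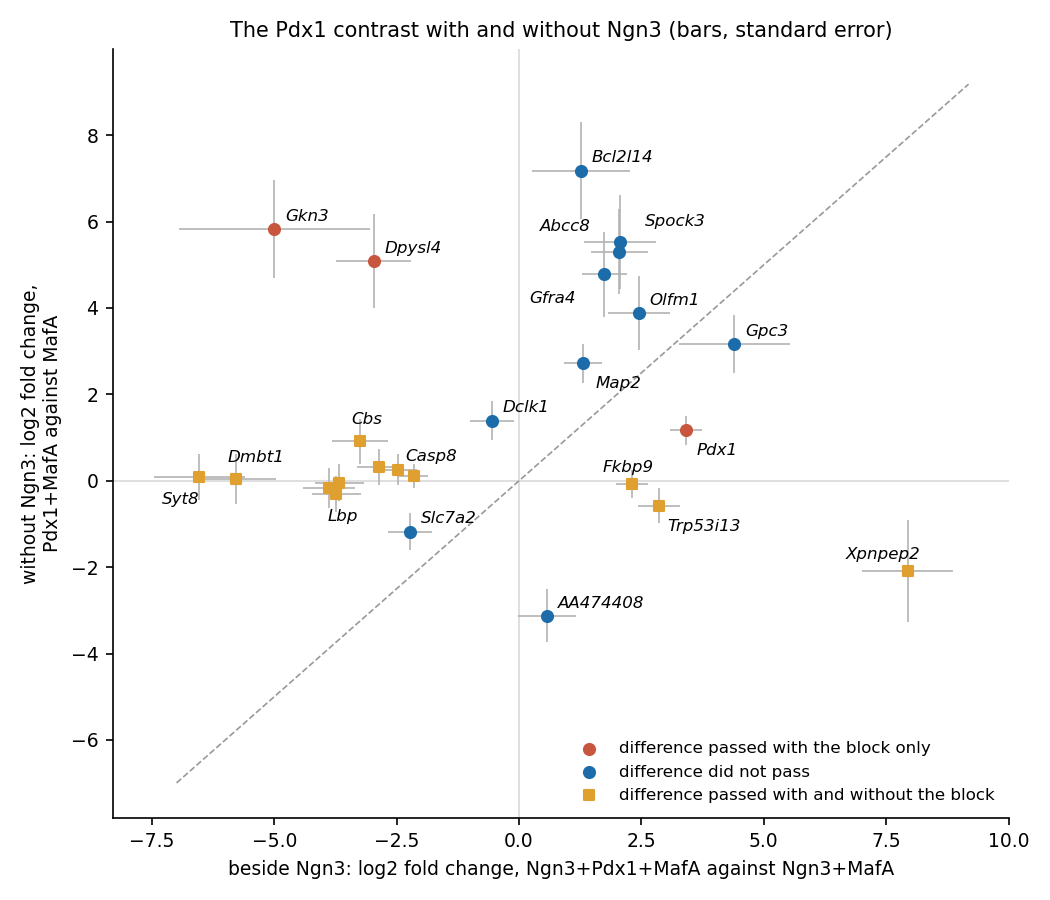
Log2 fold change for Pdx1 added to MafA without Ngn3 (vertical axis) against the same beside Ngn3 (horizontal axis), with the block, bars showing standard errors and the dashed line equal change. Squares, the 12 genes whose difference passed in both fits, lie closer to 0 on the vertical than on the horizontal axis, with Cbs at 0.92, and Gkn3 (5.83 against -4.99) lies in the opposite quadrant from the line.

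Gene lists gave no member past the threshold in either fit over both cultures. A fit with the block on the samples of the 4 groups alone passed 61 of 23148 genes. Among them were Abcc8, Gkn3, Spp1, Aqp5, Reg1, Cxcl1 and the proliferation genes Ccna2, Ccnb2, Aurka and Cdc20. Without a gene filter and without the block, Iapp, Abcc8, Gkn3, Reg1, Ccna2 and Dll4 passed. Over all genes tested, 51.7% had a log2 fold change above 0, 2.42% were higher in all pairs and 1.59% were lower in all pairs. In a list of 19 tested genes known or reported to be bound or regulated by Pdx1, the median log2 fold change was 0.00. Sst, the somatostatin gene, was higher in all pairs (log2 fold change 1.30, standard error 1.30) and Sox9, a factor of ductal progenitors, was lower in all pairs (-0.32, standard error 0.54). Among 23 foregut factors the median was -0.27, with Gata6 higher and Foxa3, Klf4 and Sox9 lower in all pairs. Duct genes had a median of -0.04 over 22, with Krt19, Muc1 and the water channel gene Aqp5 higher in all pairs and summed levels overlapping between the groups. The 27 endocrine genes had a median of 0.26 and a summed level of 57.3 to 118 CPM with MafA and of 88.4 to 123 CPM with Pdx1 and MafA, with the granin genes Chga and Chgb at most 4.67 and 3.12 CPM in a sample. Gastric and duodenal genes had a median of 0.00 over 19 tested genes. Among them was Anxa10, an annexin, higher in all pairs from 7 counts with MafA to 172 with Pdx1 and MafA. Tff2, a gastric trefoil factor, was at 2.14 to 5.01 CPM and 2.89 to 7.95 CPM. Summed gastric and duodenal levels were 28.7 to 103 CPM and 66.5 to 277 CPM. Of the highest sum, in replicate 2 of the WT cultures with Pdx1 and MafA, 163 CPM was Gkn3.

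Proliferation genes were the list with the highest median. Of 23, 22 (95.7%) had a log2 fold change above 0, beside 51.7% of all genes, with a median of 1.30 beside 0.02 over all genes. The pairs differed, with list medians of -0.03, 1.65 and 2.19 in replicates 1, 2 and 3 of the 6SA cultures and of -0.30 and 2.31 in replicates 1 and 2 of the WT cultures. Top2a, the topoisomerase of dividing cells, was at 23.4 to 134 CPM with MafA (median 82.6). Adding Pdx1 went with 34.7, 305 and 52.7 CPM in the 6SA cultures and 59.9, 530 and 69.5 CPM in the WT cultures. The replicate 2 samples with Pdx1 stood above all others and the remaining values overlapped (log2 fold change 1.30, standard error 1.01, edgeR adjusted p = 1.00). Under the block the list median was 0.71.

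Innate and mucosal genes tended the other way, with 4 of 18 above 0 (22.2%, beside 51.7% of all genes) and a median of -0.35. Cxcl1, a neutrophil chemokine, was lower in all pairs (log2 fold change -0.95, standard error 0.88) and Il1rn, the interleukin-1 receptor antagonist, higher (0.92, standard error 0.48). The immediate early genes Btg2, Fosb, Ier2 and Zfp36 were lower in all pairs among 20 (20%, beside 1.59% of all genes) with a median of -0.17. The Notch ligand gene Jag1 was lower in all pairs among 14 Notch genes (7.14%) with a median of -0.28. The other lists had medians of 0.02 (10 Maf and related factors), 0.12 (18 endoplasmic reticulum and stress genes), 0.16 (22 interferon genes), -0.16 (10 acinar), 0.24 (9 mesenchyme), -0.22 (6 immune) and 0.38 (6 endothelial genes). The summed levels of the last 4 overlapped between the groups. They were at 34.9 to 334 CPM with MafA and 5.06 to 138 CPM with Pdx1 and MafA for acinar genes and at 17.3 to 118 and 14.6 to 95.7 CPM for mesenchyme. In the same order they were 622 to 992 and 413 to 851 CPM for immune and 4.94 to 24.5 and 2.05 to 16.7 CPM for endothelial genes. Most of the immune sum was Cd14, the lipopolysaccharide co-receptor, at a mean of 787 CPM with MafA and 608 CPM with Pdx1 and MafA. Other members of these lists had counts although Ptprc, Pdgfrb and Cdh5 had 0. Summed over the MafA samples and over those with Pdx1 and MafA, the macrophage genes Csf1r and Cd68 had 245 and 273 and 505 and 882 counts, the endothelial genes Flt1 and Egfl7 76 and 179 and 229 and 316, and the collagen gene Col1a1 65 and 17. The part of such cells in the results was not tested.

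**Figure D5:**
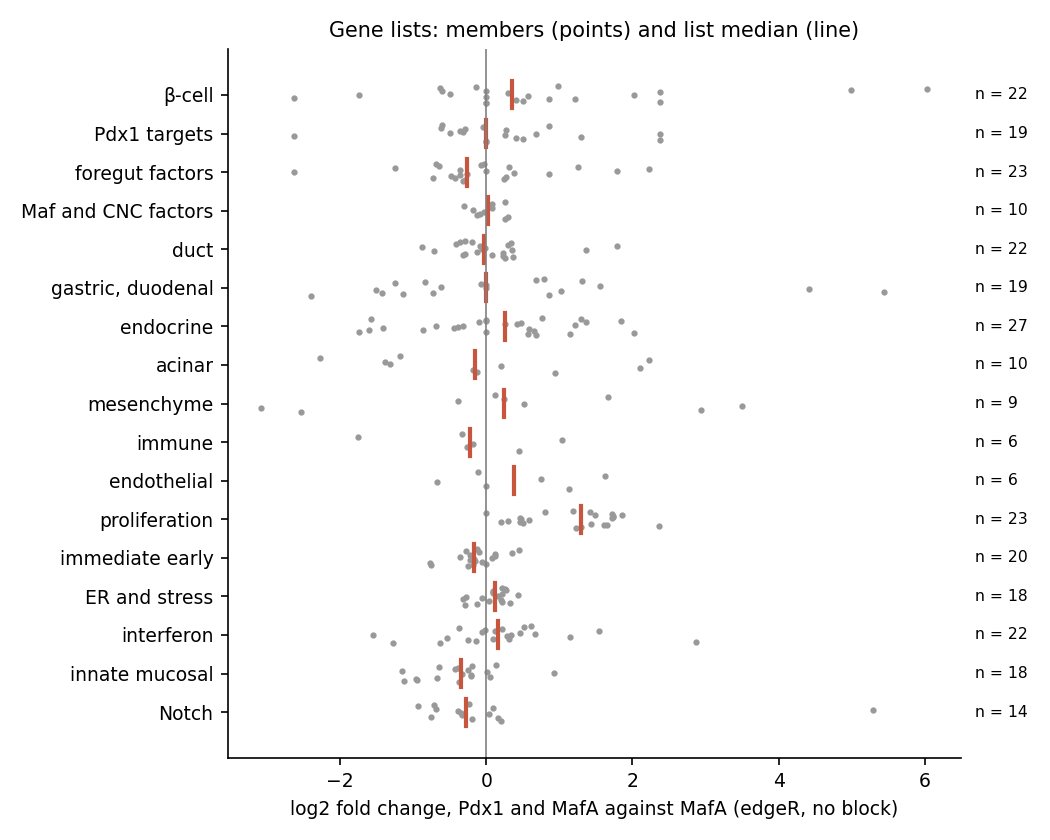
Log2 fold change without the block of every tested member (points) of 17 gene lists, with the list median as a line and the number of members at the right. The proliferation list lies to the right, with 22 of 23 members above 0, and the β-cell list spreads widely around its median of 0.35, with Abcc8 and Kcnj11 at its right end.

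Levels of these genes were also taken by pool of 50 cells. Pools of a sample are technical repeats, so counts of pools do not add replicates. Replicate 1, where Bcl2l14, Map2 and Abcc8 were highest with Pdx1 and MafA, gave 3 of those pools in either culture. With MafA it gave 3 pools in the 6SA and 2 in the WT cultures. Bcl2l14 had a count in 10 of 11 pools with Pdx1 and MafA (0 to 35.3 CPM by plain totals) and in 2 of 9 pools with MafA (at most 0.502 CPM). Map2 was at 6.80 to 95.7 CPM in the 11 pools and at 0 to 13.9 CPM in the 9, and Abcc8 had a count in 11 of 11 (0.677 to 48.5 CPM) and in 6 of 9 (at most 2.91 CPM). Spock3 had a count in 11 of 11 pools (2.03 to 37.1 CPM) and in 2 of 9, and Rundc3b in 9 of 11 and 0 of 9. Gkn3 had a count in 9 of 11 pools, up to 220 CPM, and in 5 of 9. Angptl7 reached 96.8 CPM in 1 pool and at most 12.4 CPM in the others.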

How the data were processed

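RNA was sequenced from pools of 50 sorted cells, single-end, with spike-ins. Per the labels and the methods, the authors aligned reads to GRCm38 (mm10) with GSNAP 2015-09-29 and counted them per Ensembl gene with HTSeq 0.5.3p3. The deposited values are raw counts per gene. Whether counting used strand is not given in the sources used here. Of the reads of the 20 pools, 8.70% to 20.3% fell on no gene and 5.38% to 15.2% were ambiguous, and both were left out.

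Of 61 libraries, 58 had over 1000000 gene counts, under 25% spike-ins and over 10000 genes detected, the limits of the study's methods, and technical repeats were summed to 32 samples, with 0 pairs of identical samples. The study states that 5 samples were dropped on its limits, whereas 3 libraries were left out here. Genes with a count in at least 5 libraries and a variance of log2(CPM + 1) above 0.001 were tested, 24004 of 46078. One model of 12 conditions was fitted with edgeR 4.0.16 (quasi-likelihood, trimmed mean of M-values, R 4.3.3), the Pdx1 effect was averaged over both cultures, and p-values were adjusted over all genes by Benjamini-Hochberg with a threshold of 0.05. DESeq2 1.42.0 was an alternative. Whether replicates came from separate mice is not stated, so p-values measure the spread between these samples.

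Same-numbered samples deviated together over 5000 genes, with correlations of 0.548 and 0.314 for replicates 1 and 2 of the WT cultures and of 0.814, 0.285 and 0.474 for replicates 1 to 3 of the 6SA cultures, so the numbers were taken to pair the samples. A fit blocked on the replicate number is given beside the first. Named genes were those past the threshold, and otherwise up to 10 a direction with the lowest p among genes with 1 sign in all 5 pairs and a mean of at least 5 CPM, the factors, the called or most abundant list members, the 2 genes with the lowest p between cultures and genes called in 1 culture. One gene that this rule names is not reported here. The 10 genes with the lowest p under the block and all comparisons beside Ngn3 were added after the data were seen. The samples and gene lists were chosen with earlier results of these data known. Scripts were tested on simulated data. Gene positions are from GENCODE M21 and promoters from RefSeq, both on GRCm38.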

Additional observations from a re-analysis of the deposited data

Results flagged for a closer look

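Of 30 sets of values tested for a sample far from its group, 7 held one. The critical value used marks about 1 in 20 sets by chance, but AA474408 and Rsad2 were named for values that 1 sample drives, so the 7 cannot be read against it. Replicate 2 of MafA in the WT cultures stood apart for AA474408 (1972 CPM, next 8.44 CPM) and for the interferon-induced genes Rsad2 (8.33 CPM, next 0.264 CPM) and Ifit1 (65.1 CPM, next 0.0576 CPM). Replicate 2 of Pdx1 with MafA in the 6SA cultures stood apart for Rsad2 (79.0 CPM) and Ifit1 (58.2 CPM), with the other 5 samples at 0. Replicate 3 of Pdx1 with MafA in the WT cultures stood apart for Mafa (4.21 CPM, next 1.45 CPM) and for the spike-in share (0.209%, next 0.105%). The cause was not tested.

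The effect of adding Pdx1 differed without and beside Ngn3, by the test of the difference with the block, for Pdx1 (-2.24 on the log2 scale), Gkn3 (10.82) and Dpysl4 (8.05). None of the 3 passed without the block, and with it they passed in 5, 9 and 10 of 11 fits with 1 sample left out. Without the block it differed for Casp8 (2.30), Cbs (4.24), Dmbt1 (5.61), Fam110c (3.19), Fkbp9 (-2.43), Lbp (3.42), Syt8 (6.58), Trf (3.99), Trim16 (3.71), Trp53i13 (-3.35), Ttc23 (2.80) and Xpnpep2 (-10.53), where a positive value is a higher log2 fold change without Ngn3.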

How the results depend on the processing

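Counts of called genes moved with the setting, and the cause was not tested. Against 0 genes over both cultures, the replicate block gave 2, DESeq2 27, no gene filter 61, the block with only the 4 conditions 61, and leaving out 1 sample 0 to 1 (1 without MafA replicate 1 of the WT cultures). Against 0 in the WT cultures, the block gave 1, DESeq2 18, no filter 20, the block with 4 conditions 19, the newer quasi-likelihood setting of edgeR 1 and leaving out 1 sample 0 to 1. Against 0 in the 6SA cultures, DESeq2 gave 9, no filter 35 and the block with 4 conditions 52. Against 0 for the difference between cultures, DESeq2 gave 5, no filter 12, the block with 4 conditions 7 and leaving out 1 sample 0 to 1. Against 2 with the block, 4 conditions gave 61, DESeq2 39, the newer edgeR setting 16, passage 2 alone 1, no filter 19, first technical repeats 5 and leaving out 1 sample 0 to 3 (0 without MafA replicates 1 and 2 of the 6SA cultures, MafA replicate 2 of the WT cultures or Pdx1 with MafA replicate 1 of the 6SA cultures). Against 12 for the difference without and beside Ngn3, the block gave 62, DESeq2 349, no filter 587, edgeR's own filter 6, the newer edgeR setting 26, first technical repeats 2, all libraries 5, passage 2 alone 119 and leaving out 1 sample 0 to 5.

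Mafa (0.26) changed sign with first technical repeats (-0.42), with passage 2 alone (-0.21) and among fits without 1 sample (-1.08 to 1.23), and AA474408 (-3.15) among the latter (-3.65 to 0.59). The alternatives of the exact tests kept their direction, and with sign flips p could not go below 0.0625. Size factors by relative log expression moved the median of all genes by -0.0465. Other fits with the block also passed further genes named above over both cultures. The newer edgeR setting passed Abcc8, Cd74, Dpysl4, Gkn3, Gp2, Gpc3 and Spock3. No filter passed Abcc8, Dpysl4, Gfra4, Gkn3, Gp2, Gpc3, Olfm1, Rundc3b and Spock3, and first technical repeats passed Gkn3 and Spock3. The interval given for the fold of Bcl2l14, with 4 counts in the MafA samples, covers counting error only and not the spread between samples.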
